A study of Mus musculus with 18 samples.

Results

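The 7 genes described here build and load the MHC class II molecule: H2-Aa, H2-Ab1, H2-Eb1, H2-DMa, H2-DMb1, Cd74 and Ciita. They were chosen by name, as the presenting chains, the peptide-loading chains, the invariant chain and the class II transactivator, and not by how they measured. All 7 were found among the 55385 genes of the deposited tables, and all 7 passed the low count filter, which kept 15208 genes. Polyadenylated RNA came from the livers of adult mice aged 17.1 to 18.0 weeks, in 18 samples, with 6 each from Dp16-2xIFNRs, Dp16 and wild-type C57BL/6J mice. Each group held 3 females and 3 males, and the labels list no treatment. Dp16 mice, a model of trisomy 21, have chromosome 16 duplicated from Lipi to Zbtb21, a stretch that includes the interferon receptor genes. In Dp16-2xIFNRs mice that receptor cluster is back at its normal dosage while the rest of the segment stays duplicated. The duplication is in every cell of the animal, so a change in liver RNA is not tied to any 1 cell type. The labels name C57BL/6J for the wild-type mice only, and do not say whether the animals were littermates.

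MHC class II molecules display peptides from proteins taken up by the cell to CD4 T cells. An alpha and a beta chain pair in the endoplasmic reticulum with the invariant chain, which blocks the groove and steers the complex to endosomes. There proteases trim the invariant chain, and the DM molecule exchanges its last fragment for a peptide. Dendritic cells, B cells and macrophages make these proteins constitutively, and interferon gamma can switch them on in other cells through Ciita. In the liver the class II transcripts are thus known mainly from Kupffer cells, dendritic cells, B cells and sinusoidal endothelium, while hepatocytes make most of the tissue's RNA.

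H2-Aa, H2-Ab1, H2-Eb1, H2-DMa and H2-DMb1 lie within the H2 region of chromosome 17, between positions 34119541 and 34316674 of GRCm38 (GENCODE M21). Ciita lies on chromosome 16 at positions 10480059 to 10528418, outside the duplicated segment, which starts at 75540514 and ends at 97962622. No member therefore has an extra copy in Dp16 mice.

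Class II genes share a promoter module, in which an X box bound by the RFX complex stands a fixed distance before a Y box bound by NF-Y, with Ciita recruited to the assembled factors. Of the 7 members, 4 had a promoter window. Those of H2-Aa, H2-Eb1 and H2-DMb1 are shown because each held both boxes in the letters searched. A link between these letters and the members' levels was not tested. Each window is RefSeq sequence of GRCm38.p6 on the gene's own strand, 250 bases before to 50 after the transcription start, with chr17:34287774-34288073 (minus strand) for H2-Aa, chr17:34305617-34305916 (plus strand) for H2-Eb1 and chr17:34152941-34153240 (plus strand) for H2-DMb1. The first run of capitals marks the letters GNAAC, then 2 or 3 bases, then TGANG, the X box pattern searched; the second marks ATTGG, the core of the Y box.
H2-Aa: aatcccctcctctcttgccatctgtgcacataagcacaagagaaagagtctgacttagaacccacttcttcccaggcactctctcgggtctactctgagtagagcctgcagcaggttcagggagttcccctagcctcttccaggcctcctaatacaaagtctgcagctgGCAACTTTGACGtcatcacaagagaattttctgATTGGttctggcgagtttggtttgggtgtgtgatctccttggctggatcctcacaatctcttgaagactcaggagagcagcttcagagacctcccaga
H2-Eb1: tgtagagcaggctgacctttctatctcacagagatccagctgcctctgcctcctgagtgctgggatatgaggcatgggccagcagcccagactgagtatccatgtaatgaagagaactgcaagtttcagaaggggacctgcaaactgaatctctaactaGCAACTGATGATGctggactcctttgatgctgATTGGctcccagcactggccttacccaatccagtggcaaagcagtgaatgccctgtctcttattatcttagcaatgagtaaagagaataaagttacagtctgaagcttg
H2-DMb1: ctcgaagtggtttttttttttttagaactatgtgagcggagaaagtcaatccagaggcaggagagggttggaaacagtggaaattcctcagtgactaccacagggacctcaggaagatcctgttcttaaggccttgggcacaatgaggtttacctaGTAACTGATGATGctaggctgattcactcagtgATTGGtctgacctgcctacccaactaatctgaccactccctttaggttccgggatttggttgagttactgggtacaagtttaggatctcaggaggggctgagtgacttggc

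The X box letters ran from position -81 to -70 in H2-Aa, from -91 to -79 in H2-Eb1 and from -94 to -82 in H2-DMb1, counted from the start site. ATTGG followed 21 bases on in H2-Aa, 19 bases on in H2-Eb1 and 20 bases on in H2-DMb1. Over all 32851 promoter windows, searched on both strands, the X box letters occurred in 1.81% and ATTGG in 37.4%. The X box letters followed by ATTGG 10 to 30 bases on, the first overlapping no part of the second, occurred in 27 windows, or 0.0822%. The pattern was written with these promoters in view, so its presence in them is a description and not a test. Both RefSeq windows of H2-DMa, which varied with these genes too, lacked the pair in these letters. Of the class II genes outside the members, H2-Ob, a chain of the DM inhibitor DO, also held it. The windows of H2-Oa, H2-DMb2 and H2-Eb2 lacked it. Windows for H2-Ab1, Cd74 and Ciita were not used here.

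Total counts per library ran from 38236222 to 59923315. Between-library levels are given as CPM, counts scaled to the library total, corrected by TMM factors, which allow for differences in RNA composition. Dp16 libraries 4 and 5 had the lowest and the highest of these factors, 0.803 and 1.338, so the main results are also given without them. Ifngr2, the interferon gamma receptor subunit inside the duplicated segment, measured 7.24 ± 1.79 RPKM in Dp16-2xIFNRs, 10.5 ± 2.80 in Dp16 and 7.97 ± 2.14 in wild-type livers (SD, n = 6 each), so its means follow the labelled dosage although its edgeR adjusted p of 0.999 did not pass. Hepatocyte markers summed to between 51864 and 76787 RPKM per library, against 257 to 561 RPKM for Kupffer cell markers, so the livers carried both kinds of transcript.

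On the length-scaled measure, reads scaled to gene length and library total (RPKM), Cd74 was the most abundant member, with 115 ± 36.5 RPKM over the 18 libraries (SD). H2-Aa followed at 62.6 ± 24.8 RPKM and H2-Ab1 at 60.3 ± 24.2 RPKM, with a ratio of H2-Ab1 over H2-Aa within a library of 0.963 ± 0.0644. H2-Eb1 stood at 33.9 ± 13.6 RPKM. The peptide-loading chains were far lower, with 5.12 ± 2.26 RPKM for H2-DMb1 and 2.91 ± 0.778 RPKM for H2-DMa. Ciita was lowest at 0.141 ± 0.0680 RPKM, from 18 to 154 counts per library, so its values carry the most counting error. H2-Ea, the partner of the H2-Eb1 chain and annotated as a pseudogene (H2-Ea-ps), had no read in 18 of 18 libraries.

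Levels of the presenting chains overlapped between all 3 genotypes. H2-Aa, an alpha chain, measured 70.0, 81.2 and 128 CPM (lowest, median and highest) in Dp16-2xIFNRs, 32.9, 59.6 and 129 CPM in Dp16 and 25.5, 47.0 and 111 CPM in wild-type livers. H2-Ab1, its beta chain partner, measured 67.6, 84.9 and 131 CPM in Dp16-2xIFNRs, 39.1, 62.1 and 144 CPM in Dp16 and 25.9, 46.6 and 107 CPM in wild-type livers. H2-Eb1, the beta chain of the second class II molecule, measured 59.3, 67.1 and 96.3 CPM in Dp16-2xIFNRs, 29.9, 54.3 and 96.9 CPM in Dp16 and 19.0, 31.5 and 87.3 CPM in wild-type livers. For these 3 genes the Dp16-2xIFNRs libraries lay in the middle and upper part of the range, and the Dp16 libraries were spread over most of it. Most wild-type libraries were low, with wild-type 1 lowest of all 18 and wild-type 3 among the highest. Dp16 4 was the highest library for all 3 in CPM; in RPKM, which carries no TMM factor, its H2-Aa of 91.8 stood below 108 in Dp16-2xIFNRs 3 and 101 in wild-type 3.

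The invariant chain and the loading chains had the same kind of spread. Cd74, which encodes the invariant chain and lies on chromosome 18 of GRCm38 at positions 60803848 to 60812652, measured 136, 189 and 255 CPM in Dp16-2xIFNRs, 114, 165 and 252 CPM in Dp16 and 80.3, 111 and 258 CPM in wild-type livers. Its highest value of all came from wild-type 3, while the other 5 wild-type libraries were all at or below 125 CPM. H2-DMb1, the DM beta chain, measured 6.27, 8.60 and 13.1 CPM in Dp16-2xIFNRs, 3.85, 6.46 and 17.3 CPM in Dp16 and 2.28, 4.78 and 8.63 CPM in wild-type livers. H2-DMa, the DM alpha chain, measured 5.39, 7.80 and 11.8 CPM in Dp16-2xIFNRs, 3.87, 7.74 and 12.6 CPM in Dp16 and 5.05, 6.08 and 10.9 CPM in wild-type livers. Groups overlapped for all 3 genes. H2-DMb1 has a near-identical neighbour, H2-DMb2, and the sources used here do not say how reads shared by both were counted, so the split between them is uncertain. Ciita, the transactivator, measured 0.808, 1.09 and 1.55 CPM in Dp16-2xIFNRs, 0.789, 1.48 and 1.92 CPM in Dp16 and 0.370, 0.759 and 1.65 CPM in wild-type livers. Its group order in CPM thus had Dp16 on top, unlike that of the other 6 genes, with overlap between all groups.

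**Figure D1:**
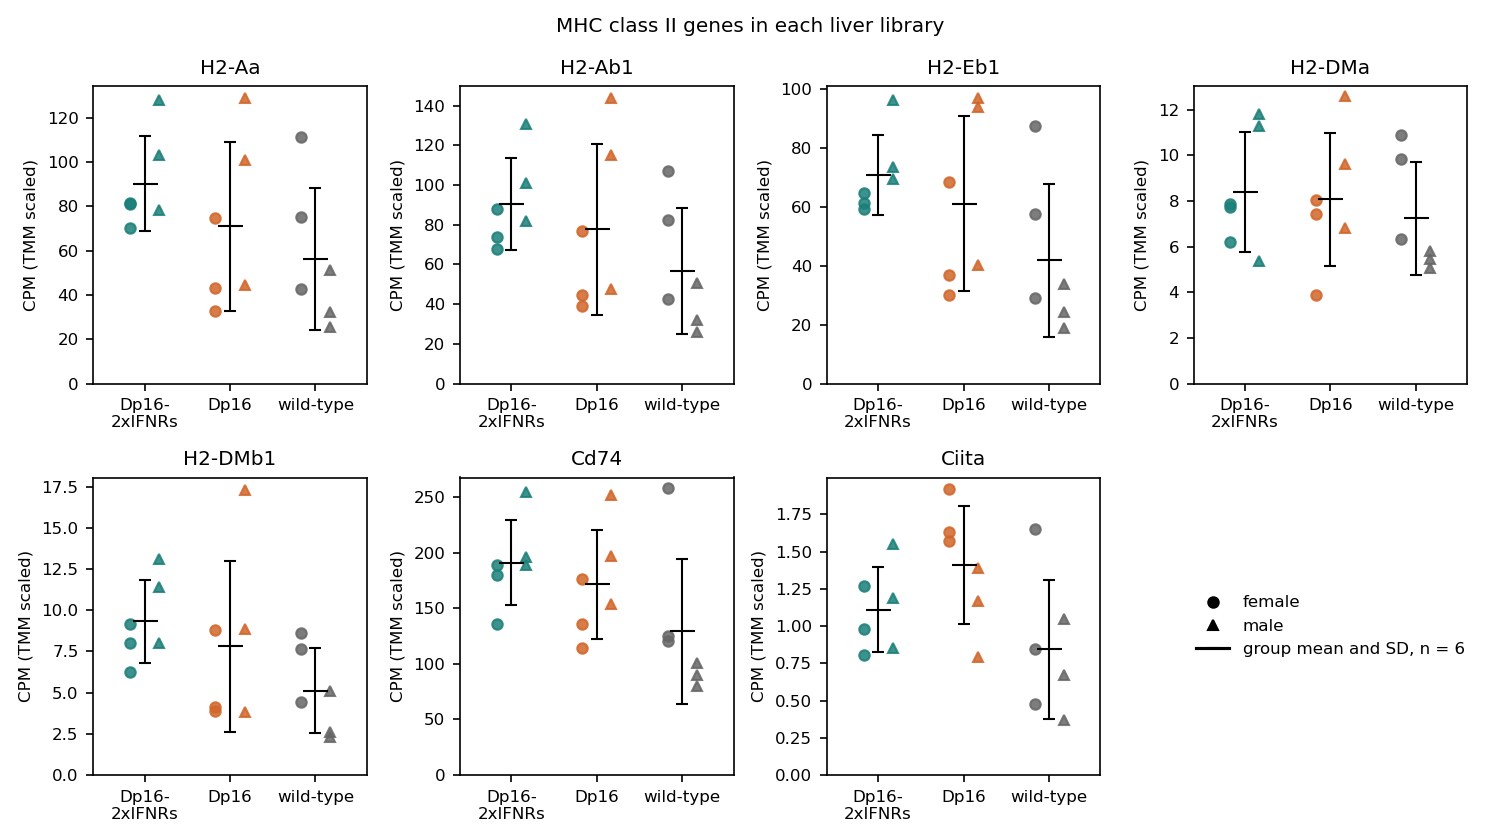
Level of each of the 7 class II genes in each library, in TMM scaled CPM (vertical axis from 0), by genotype and sex; bars give the group mean and SD (n = 6). Wild-type males (grey triangles) lie at the low end for H2-Aa, H2-Ab1, H2-Eb1, H2-DMa, H2-DMb1 and Cd74, and wild-type 3, a female, is the highest wild-type point for these genes.

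Setting Dp16 against wild-type livers asked whether the extra chromosome segment goes with a change in class II transcripts. None of the 7 members passed the edgeR quasi-likelihood test at an adjusted p of 0.05 over all genes tested, where 0.0395% of 15208 genes were called. All 7 log2 fold changes were positive, with a median of 0.41 against 0.00997 for all genes, all adjusted p values were 0.999 and no member had an unadjusted p under 0.05. DESeq2 and limma-voom also called none of the 7. H2-Ab1 stood at 0.41 ± 0.37 (log2 fold change ± SE), H2-Eb1 at 0.54 ± 0.36, Cd74 at 0.41 ± 0.26 and Ciita at 0.74 ± 0.36. Of the 6 Dp16 libraries, 5 exceeded the mean of the wild-type group for Cd74 and Ciita, 4 for H2-DMa and 3 for each of the other 4 genes. Without Dp16 4 and 5 the log2 fold changes were 0.16 to 0.77, again with none called. Because whole liver was sequenced, a change in the number of cells of a type and a change in RNA per cell cannot be told apart in any of these values.

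Setting Dp16-2xIFNRs against wild-type livers asked the same with the receptor cluster at normal dosage. Again 0 of 7 members passed the edgeR test, where 0.0986% of genes were called, and 3 members had an unadjusted p under 0.05 (8.66% of all genes). The 7 log2 fold changes were positive, with a median of 0.64 against -0.02 for all genes. H2-DMb1 stood at 0.84 ± 0.40 and H2-Eb1 at 0.76 ± 0.36, each with an edgeR adjusted p of 0.574, and Cd74 at 0.57 ± 0.26 with an adjusted p of 0.573. H2-Aa (0.66 ± 0.36), H2-Ab1 (0.64 ± 0.37), H2-Eb1, H2-DMb1 and Cd74 exceeded the mean of the wild-type group in all 6 Dp16-2xIFNRs livers, Ciita (0.43 ± 0.37) in 5 and H2-DMa (0.20 ± 0.28) in 4. The group ranges overlapped for all 7. Leaving out wild-type 3 moved Cd74 to 0.88 and H2-Aa to 0.97, still not called. Without Dp16 4 and 5 the 7 values were 0.23 for H2-DMa to 0.92 for H2-DMb1, with 5 members at an unadjusted p under 0.05 and edgeR adjusted p values of 0.262 to 0.709. In that setting 64 genes were called over the whole table, against 15 with all libraries, so the lower p values were not confined to the members. The share of all genes at an unadjusted p under 0.05 was not taken in that setting.

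Dp16-2xIFNRs against Dp16 livers differ, by the labels, in the dosage of the receptor cluster. The edgeR test called 0% of genes here, with 9.32% at an unadjusted p under 0.05 and 7 genes called by DESeq2, and none of the 7 members. H2-Aa stood at 0.35 ± 0.35, H2-Ab1 at 0.23 ± 0.36, H2-Eb1 at 0.21 ± 0.35, H2-DMb1 at 0.27 ± 0.39, Cd74 at 0.15 ± 0.26 and H2-DMa at 0.06 ± 0.28 (log2 fold change ± SE). Ciita alone was negative, at -0.31 ± 0.36. EdgeR adjusted p values were 0.704 to 0.940. For the 6 genes other than Ciita the Dp16-2xIFNRs mean in CPM was above the Dp16 mean, by less than the SD between Dp16 samples. In RPKM the mean of H2-DMa was 3.00 in Dp16-2xIFNRs and 3.03 in Dp16. Without Dp16 4 and 5 the values ran from -0.36 for Ciita to 0.56 for H2-DMb1, with none called. The comparisons with wild-type share its 6 libraries, so their common sign is not independent.

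**Figure D2:**
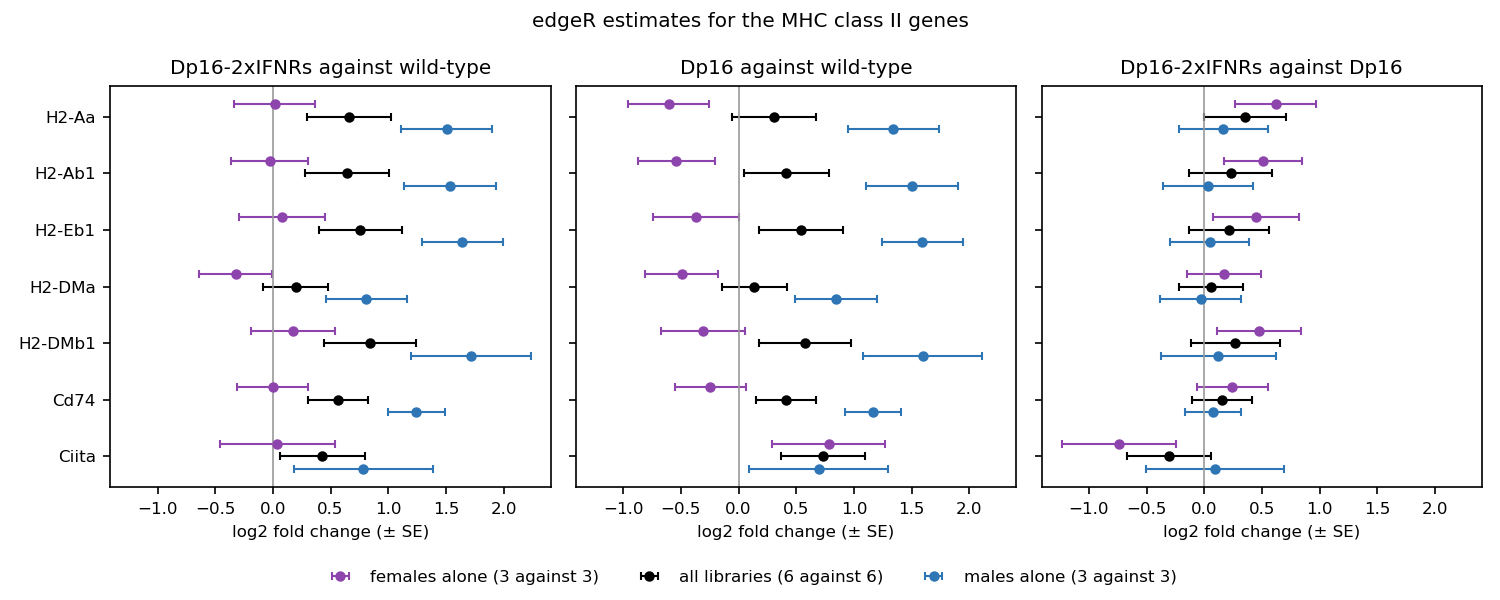
Log2 fold change (horizontal axis) with its standard error for each gene in 3 comparisons, from all libraries (black, 6 against 6), females alone (purple) and males alone (blue, 3 against 3 each). In both comparisons with wild-type the male estimates for the 6 genes other than Ciita lie between 0.81 and 1.72 and the female ones between -0.61 and 0.17; none passed the test.

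Levels were also read by sex within each genotype. H2-Aa measured 80.8, 81.6 and 70.0 CPM in Dp16-2xIFNRs females, 43.1, 32.9 and 74.7 CPM in Dp16 females and 111, 42.6 and 75.0 CPM in wild-type females. In males it measured 78.1, 128 and 103 CPM in Dp16-2xIFNRs, 101, 44.4 and 129 CPM in Dp16 and 25.5, 32.2 and 51.4 CPM in wild-type livers. The 3 wild-type males were thus low, and Dp16 3 was the only male of the other genotypes to fall within their range. The wild-type sexes overlapped, with female wild-type 4 at 42.6 CPM below male wild-type 5 at 51.4 CPM.

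Cd74 measured 189, 180 and 136 CPM in Dp16-2xIFNRs females, 136, 114 and 176 CPM in Dp16 females and 258, 121 and 125 CPM in wild-type females. In males it measured 196, 255 and 189 CPM in Dp16-2xIFNRs, 252, 154 and 197 CPM in Dp16 and 80.3, 101 and 90.0 CPM in wild-type livers. Here the males of both duplicated genotypes lay wholly above the wild-type males, while the females overlapped. Over the list, 5 of 7 members (H2-Aa, H2-Ab1, H2-Eb1, H2-DMb1 and Cd74) were higher in every Dp16-2xIFNRs male than in every wild-type male, a pattern that 7.69% of all genes showed. In Dp16 males 3 of 7 did so (H2-Eb1, H2-DMa and Cd74), against 4.15% of all genes.

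Fitted on males alone, Dp16-2xIFNRs livers stood above wild-type by 1.51 ± 0.40 for H2-Aa, 1.64 ± 0.35 for H2-Eb1 and 1.24 ± 0.25 for Cd74 (log2 fold change ± SE). In Dp16 males H2-Aa stood at 1.34 ± 0.40, H2-Eb1 at 1.59 ± 0.35 and Cd74 at 1.16 ± 0.25 above wild-type. These are folds of 2.24 to 3.12, but no member was called in any fit of 1 sex, where 0% of genes passed in each of the 6 comparisons (1.58% to 17.6% at an unadjusted p under 0.05); the lowest edgeR adjusted p was 0.348, for Cd74 in Dp16-2xIFNRs males. In females alone H2-Aa was -0.61 ± 0.35, H2-Ab1 -0.54 ± 0.34 and Cd74 -0.24 ± 0.31 in Dp16 against wild-type, and H2-Aa was 0.01 ± 0.35 and H2-Ab1 -0.03 ± 0.34 in Dp16-2xIFNRs against wild-type.

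Ciita had its own layout by sex. It measured 0.982, 1.27 and 0.808 CPM in Dp16-2xIFNRs females, 1.57, 1.92 and 1.63 CPM in Dp16 females and 0.847, 1.65 and 0.475 CPM in wild-type females. In males it measured 0.856, 1.55 and 1.19 CPM in Dp16-2xIFNRs, 1.39, 1.17 and 0.789 CPM in Dp16 and 0.370, 1.05 and 0.670 CPM in wild-type livers. Ciita was thus lower in every Dp16-2xIFNRs female than in every Dp16 female, as 14.8% of all genes were. Its log2 fold change in those females was -0.74 ± 0.49 (edgeR adjusted p = 0.419). Within each sex, the other pairs of genotypes overlapped. Across the sexes, the Dp16 females, at 1.57 CPM or more, also lay just above every male, at 1.55 CPM or less. The share of all genes with that split was not taken, and the gap is small beside the low counts of Ciita.

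The difference between the sexes was tested itself, as the change in females minus the change in males. For Dp16 against wild-type it was -1.94 ± 0.57 for H2-Aa, -2.03 ± 0.56 for H2-Ab1, -1.95 ± 0.56 for H2-Eb1, -1.89 ± 0.67 for H2-DMb1, -1.32 ± 0.48 for H2-DMa and -1.39 ± 0.40 for Cd74 (log2 ± SE). These 6 had an unadjusted p under 0.05, as 7.88% of all genes did, but none passed over all genes, with edgeR adjusted p values of 0.532 to 0.582, and 0% of genes were called. Ciita stood apart at 0.11 ± 0.74. For Dp16-2xIFNRs against wild-type the same 6 genes were between -1.55 and -1.12, Cd74 at -1.23 ± 0.40, with all adjusted p at 1.00 and again 0% of genes called. Between Dp16-2xIFNRs and Dp16 the members' median difference between the sexes was 0.36, with 0% of genes called; it was -0.11 without Dp16 4 and 5, 0.83 without Dp16 6 and -0.12 with the replicate number as a block. Both large differences rest on the same 6 wild-type libraries. Without Dp16 4 and 5, H2-Aa was -1.37, H2-DMb1 -1.03 and Cd74 -1.27 in the Dp16 comparison, and without wild-type 3 Cd74 was -0.95.

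Female against male over all genotypes gave 0 of 7 members called, while 6.56% of all genes were, and the members' median log2 difference was -0.08. That median was 0.16 without Dp16 4 and 5, 0.07 without either of them alone and -0.24 with the replicate number as a block, so its sign depends on these libraries. Elsewhere in the pathway 4 genes were called lower in females. Among 9 endosomal proteases and reductase this was Sppl2a, the protease that removes the invariant chain stub, at -0.41 ± 0.10 (edgeR adjusted p = 0.0185). Among 6 turnover and trafficking genes these were Marchf8, a ubiquitin ligase that can target class II, at -0.40 ± 0.10 (edgeR adjusted p = 0.0186), and Lamp1, a lysosomal membrane protein, at -0.36 ± 0.09 (0.0248). Among 7 costimulatory ligands and class II receptors it was Lag3, an inhibitory receptor for class II, at -1.13 ± 0.31 (edgeR adjusted p = 0.0304).

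Across the 18 livers, 6 members varied together and Ciita did not. With group and sex means removed, the 15 pairs among the 6 genes other than Ciita had a median Pearson correlation of log2 CPM of 0.871, from 0.708 for H2-DMb1 with Cd74 to 0.993 for H2-Aa with H2-Ab1. Ciita with each of the other 6 had a median of -0.0960, from -0.135 with H2-DMb1 to 0.175 with Cd74. Without Dp16 4 and 5 the medians were 0.865 for the 15 pairs and 0.151 for Ciita. All points share their library's depth and composition, and the low counts of Ciita limit what a weak correlation can show.

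**Figure D3:**
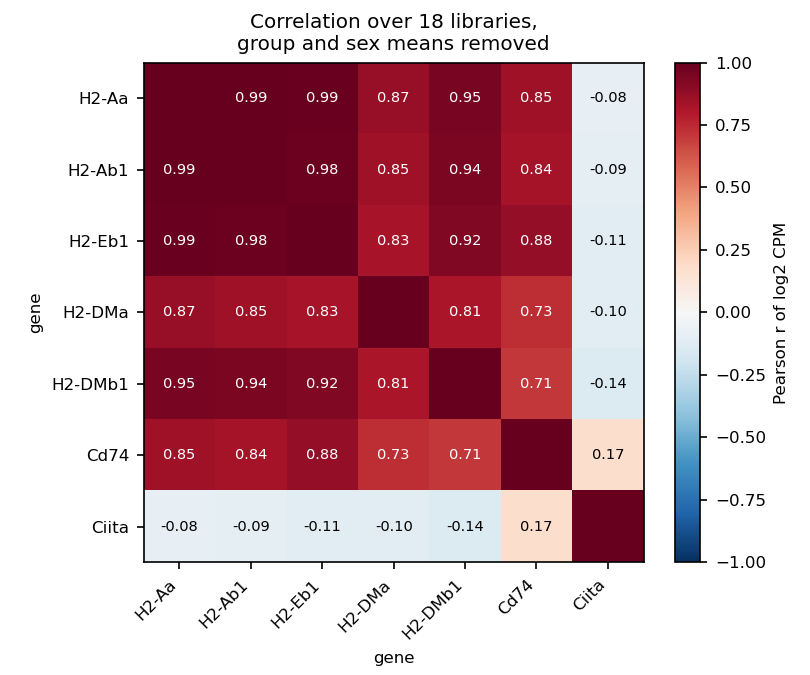
Pearson correlation of log2 CPM between members over 18 libraries, with group and sex means removed; colour and number give r. The block of 6 genes runs from 0.71 to 0.99, and the row of Ciita from -0.14 to 0.17.

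**Figure D4:**
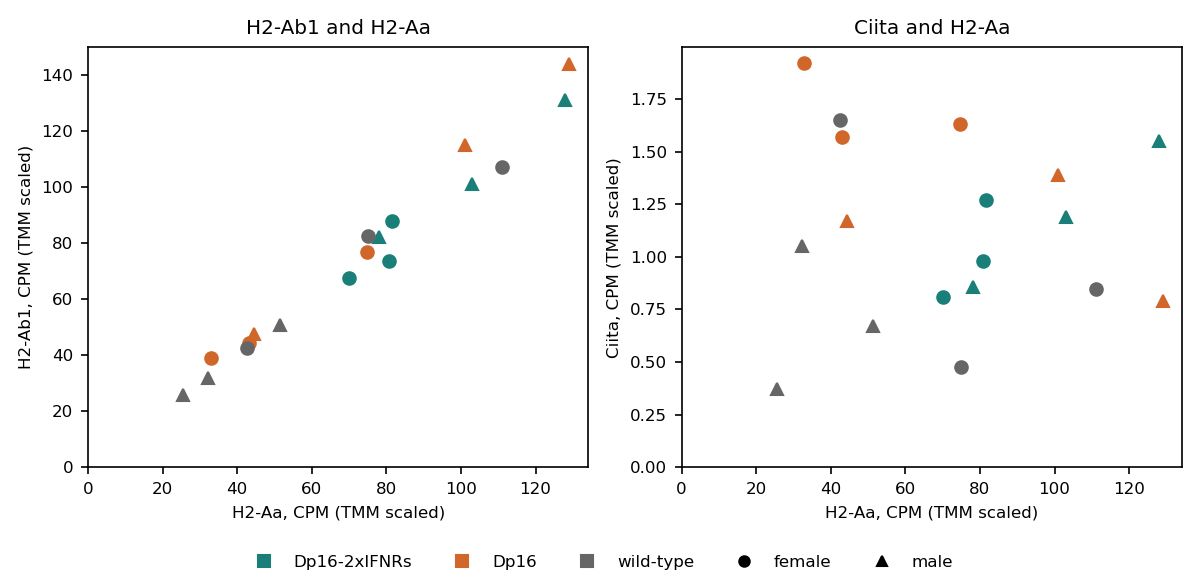
H2-Ab1 (left) and Ciita (right) against H2-Aa, all in TMM scaled CPM, 1 point per library, coloured by genotype and shaped by sex. H2-Ab1 follows H2-Aa over a 5.06-fold range of H2-Aa, while the libraries with the highest Ciita, up to 1.92 CPM, are not those with the highest H2-Aa.

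Ratios within a library, which cancel its scaling, were tight for some pairs and loose for others. Over the 18 libraries the SD was 6.69% of the mean for H2-Ab1 over H2-Aa and 10.5% for H2-Eb1 over H2-Aa. It was 15.7% for H2-DMb1, 25.4% for Cd74 and 30.4% for H2-DMa, each over H2-Aa, and 33.6% for H2-DMb1 over H2-DMa. H2-Ab1 over H2-Aa in RPKM was 0.932 ± 0.0566 in Dp16-2xIFNRs, 1.02 ± 0.0585 in Dp16 and 0.939 ± 0.0446 in wild-type livers (SD, n = 6 each). Across the libraries H2-Aa itself ran from 23.3 to 108 RPKM and H2-Ab1 from 22.1 to 103 RPKM. H2-Eb1 over H2-Aa was 0.535 ± 0.0455 in Dp16-2xIFNRs, 0.592 ± 0.0447 in Dp16 and 0.494 ± 0.0332 in wild-type livers. H2-DMb1 over H2-DMa was 2.18 ± 0.461 in Dp16-2xIFNRs, 1.74 ± 0.599 in Dp16 and 1.29 ± 0.338 in wild-type livers. Of 18 ratio tests, added after the data were seen, the lowest p values belonged to H2-DMb1 over H2-DMa in Dp16-2xIFNRs against wild-type (1.71-fold, exact two-sided permutation p = 0.00433 over 924 arrangements), H2-Eb1 over H2-Aa in Dp16 against wild-type (1.20-fold, p = 0.00649) and H2-DMa over H2-Aa in Dp16-2xIFNRs against wild-type (0.655-fold, p = 0.00866). Each had a Benjamini-Hochberg adjusted p of 0.0519, which misses 0.05, and the groups overlapped. With arrangements kept within sex, the first 2 had an adjusted p of 0.045 and the last 0.09 (exact permutation). Which side of 0.05 they fall on depends on single libraries: by the same exact test the 3 adjusted p values were 0.0390 without wild-type 3, 0.0390, 0.0390 and 0.0468 without Dp16 4, and 0.0974, 0.0974 and 0.107 without Dp16-2xIFNRs 6. Without both Dp16 4 and 5 they were 0.0429, 0.0429 and 0.0519.

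The genes whose pattern over the 18 livers was most like the members' mean, out of the 10404 that averaged 1 or more in log2 CPM, were Ctss (r = 0.921), Aif1 (0.916), Saa3 (0.902), Epsti1 (0.901), Capg (0.897), Serpina3g (0.896), Ly86 (0.894), C1qb (0.893), Crip1 (0.891) and Psmb8 (0.890). The measure is the Pearson correlation with the mean z score of the 7 members, group and sex means removed, and the median over all ranked genes was -0.115. Ctss encodes cathepsin S, the protease that trims the invariant chain, Aif1 and C1qb are macrophage genes, Saa3 is an acute phase gene and Psmb8 is an immunoproteasome subunit within the H2 region. Without Dp16 4 and 5 Ctss ranked 2 with r = 0.905. With no means removed Ctss ranked 1, Capg 4 and Aif1 9. The others then ranked from 12 for Serpina3g to 450 for Psmb8, with Saa3 at 53 and C1qb at 57, so the list depends on removing the group and sex means.

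By list, endosomal proteases and reductase came closest to the members, with a median r of 0.711 over 9 genes, in which cathepsin S led and Sppl2a was lowest at -0.0761. T and NK cell markers had a median of 0.552 (9 genes), Kupffer cell markers 0.519 (12 genes, from -0.540 for Cd163 to 0.893 for C1qb), monocyte markers 0.349 (8 genes) and dendritic cell markers 0.255 (10 genes). B cell markers stood at -0.0281 (7 genes), although Cd79b, a B cell receptor subunit, reached 0.668. Liver endothelial markers were mostly negative, with a median of -0.566 (8 genes), but Lyve1 (0.609) and Clec4g (0.466) were positive. The factors that bind the class II promoter also had negative values throughout, with a median of -0.332 over 7 genes, from -0.537 for Rfxank to -0.00406 for Nfyb. Genes of the interferon gamma pathway to Ciita had a median of 0.122 over 8 genes; Ifng itself had no read in 15 of 18 libraries and did not pass the filter. Hepatocyte markers had a median of 0.420 over 8 genes that went both ways, from -0.757 for Cps1 to 0.719 for Apoa1. The other lists had medians of 0.364 (other class II genes), 0.297 (turnover and trafficking), 0.163 (costimulatory ligands and receptors) and 0.0442 (plasma cell markers). Every T and NK cell marker, B cell marker and other class II gene averaged below 1 in log2 CPM. So did every dendritic cell marker but Zbtb46. These genes lie under the cut of the ranked genes, so the median of -0.115 is no matched background for them.

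**Figure D5:**
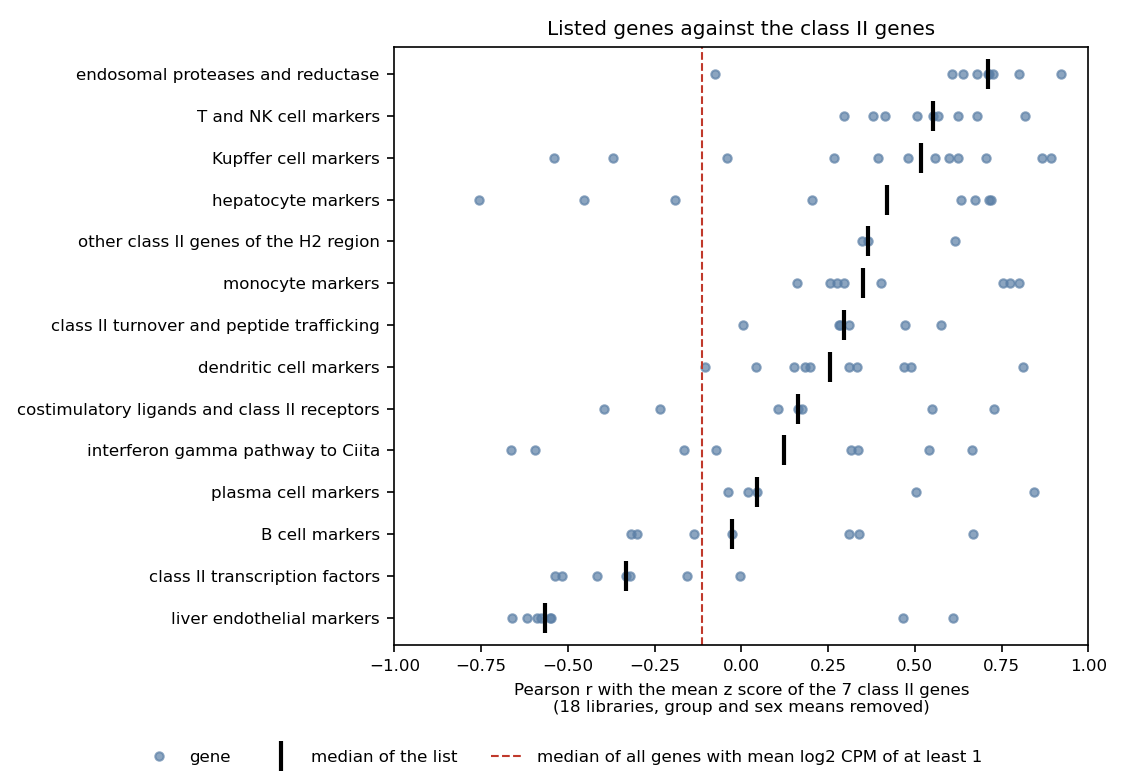
Pearson correlation (horizontal axis) of each listed gene with the mean z score of the 7 members over 18 libraries, group and sex means removed; bars give each list's median and the dashed line the median of all genes that averaged 1 or more in log2 CPM. By median, endosomal proteases stand highest at 0.711 and liver endothelial markers lowest at -0.566. Listed genes that averaged below 1 are drawn too, among them every T and NK cell and B cell marker, and the dashed line is no matched background for them.

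The rest of the pathway was also without calls between genotypes. In Dp16 against wild-type livers, 0 of 3 tested class II genes of the H2 region outside the members, 0 of 7 promoter factors, 0 of 8 interferon gamma pathway genes, 0 of 9 endosomal proteases and reductase, 0 of 6 turnover and trafficking genes and 0 of 7 costimulatory ligands and receptors passed in edgeR, with list medians of 0.36, 0.02, 0.10, 0.02, -0.05 and -0.22 (log2). In Dp16-2xIFNRs against wild-type the same lists had 0 calls each and medians of 0.84, -0.08, -0.17, 0.17, 0.07 and 0.12. In Dp16-2xIFNRs against Dp16 the counts were also 0 for each of these lists.

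Genes among those with the smallest p in each list are given as values, as log2 fold change ± SE. In Dp16-2xIFNRs against wild-type livers, H2-DMb2, the neighbour of H2-DMb1, stood at 0.84 ± 0.41 and H2-Ob at 0.87 ± 0.67. Of the promoter factors, Rfx5, a subunit of the RFX complex, stood at -0.42 ± 0.25 and Nfya, a subunit of NF-Y, at -0.33 ± 0.20. Of the interferon gamma pathway, Irf2, a regulator that binds the same sites as Irf1, stood at -0.50 ± 0.18 (edgeR adjusted p = 0.471). The proteases Ctsb (0.27 ± 0.16) and Ctsd (0.18 ± 0.14), the trafficking genes Rab7 (0.11 ± 0.11) and Ap1s2 (0.20 ± 0.28), and Cd4 (-0.45 ± 0.44) and Cd40 (0.35 ± 0.72) had no call either.

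In Dp16 against wild-type livers, Ifngr2 stood at 0.39 ± 0.19 and Socs1, an inhibitor of the pathway, at 0.72 ± 0.67. H2-DMb2 stood at 0.48 ± 0.41, H2-Ob at 0.36 ± 0.67, Nfyb at -0.13 ± 0.14 and Rfx5 at -0.17 ± 0.25. Sppl2a stood at 0.23 ± 0.13 and cathepsin S, the gene most like the members, at 0.23 ± 0.19. Ap1s2 stood at 0.39 ± 0.28, Lamp2 at -0.23 ± 0.17, Cd274, the ligand PD-L1, at -0.50 ± 0.41 and Lag3 at -0.37 ± 0.37. All of these had an edgeR adjusted p of 0.999.

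In Dp16-2xIFNRs against Dp16 livers, Ifngr2 stood at -0.44 ± 0.19 (edgeR adjusted p = 0.532) and Jak2, a kinase of the receptor, at -0.40 ± 0.23. H2-Oa, the other chain of DO, stood at 1.09 ± 0.90 and H2-DMb2 at 0.36 ± 0.41, while Nfya stood at -0.34 ± 0.20 and Rfx5 at -0.25 ± 0.25. Ifi30, the lysosomal reductase, stood at 0.21 ± 0.17, Cst3, a protease inhibitor, at 0.28 ± 0.25, Lamp1 at 0.15 ± 0.11, Lamp2 at 0.15 ± 0.17, Cd274 at 0.49 ± 0.42 and Icosl, a costimulatory ligand, at 0.74 ± 0.75.

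Marker levels show which cell types the libraries could detect. The 2 most abundant Kupffer cell markers, C1qa and C1qb, averaged 79.4 ± 15.4 and 61.0 ± 11.8 RPKM over the 18 libraries (SD). The monocyte markers Plac8 and Ms4a6c averaged 7.35 ± 3.52 and 2.03 ± 0.707 RPKM, and the endothelial markers Clec4g and Cdh5 27.1 ± 5.19 and 6.75 ± 3.27 RPKM. Markers of lymphocytes and dendritic cells were low, with 1.39 ± 0.872 RPKM for Trac, 1.03 ± 0.674 for Nkg7, 0.993 ± 0.592 for Cd79b, 0.926 ± 0.591 for Cd79a, 0.700 ± 0.575 for Batf3 and 0.475 ± 0.174 for Zbtb46. The plasma cell list was led by Sdc1 (97.7 ± 28.6 RPKM) and Xbp1 (87.9 ± 26.3 RPKM), which hepatocytes also express. Alb and Apoa1 led the hepatocyte list with 37288 ± 8677 and 12827 ± 3246 RPKM.

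Summed marker levels were set beside the members' values, by genotype and sex. Summed T and NK cell markers were 8.15 to 9.43 RPKM in Dp16-2xIFNRs females, 3.87 to 8.81 RPKM in Dp16 females and 4.93 to 9.32 RPKM in wild-type females. In males they were 6.51 to 9.04 RPKM in Dp16-2xIFNRs, 2.98 to 8.55 RPKM in Dp16 and 2.32 to 2.89 RPKM in wild-type livers, so that the wild-type males were the lowest group. Summed B cell markers spanned 1.82 to 7.76 RPKM in Dp16-2xIFNRs, 1.21 to 4.21 RPKM in Dp16 and 1.58 to 5.14 RPKM in wild-type livers, both sexes together. Summed monocyte markers spanned 11.6 to 17.3 RPKM in Dp16-2xIFNRs, 9.00 to 23.7 RPKM in Dp16 and 5.95 to 20.8 RPKM in wild-type livers, and both lists overlapped between the genotypes. Summed dendritic cell markers in females were 2.33 to 4.60 RPKM in Dp16-2xIFNRs, 2.77 to 4.30 RPKM in Dp16 and 2.25 to 4.21 RPKM in wild-type livers. In males they were 1.88 to 5.35 RPKM in Dp16-2xIFNRs, 2.77 to 4.12 RPKM in Dp16 and 1.25 to 1.85 RPKM in wild-type livers.

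Kupffer cell markers had another layout. Their sum was 316 to 381 RPKM in Dp16-2xIFNRs females, 283 to 396 RPKM in Dp16 females and 421 to 561 RPKM in wild-type females. In males it was 275 to 341 RPKM in Dp16-2xIFNRs, 287 to 381 RPKM in Dp16 and 257 to 302 RPKM in wild-type livers. The wild-type females were thus the highest group here, and the male groups overlapped. Fcna, a ficolin of Kupffer cells, was the 1 gene of the marker lists called between genotypes, lower in Dp16-2xIFNRs than in wild-type with a log2 fold change of -0.84 ± 0.13 (edgeR adjusted p = 0.00803); in Dp16 it stood at -0.69 ± 0.13 (adjusted p = 0.0589). The difference between the sexes in Dp16 against wild-type, females minus males, was negative for 9 of 9 T and NK cell markers (median -1.61), 8 of 8 monocyte markers (-1.16), 9 of 10 dendritic cell markers (-0.80), 10 of 12 Kupffer cell markers (-0.83) and 6 of 7 B cell markers (-0.68), with none called. It was also negative for 6 of 8 hepatocyte markers (-0.45) and for 9 of 9 endosomal proteases and reductase (-0.64), while liver endothelial markers had a median of 0.55 and all genes tested 0.04. Of 10 B cell markers 7 passed the filter, and Cr2 had no read in 12 of 18 libraries. The part of these markers in the members' values was not tested.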

How the data were processed

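The deposited table of counts holds whole-number read counts per gene made by the authors, and the deposited RPKM table holds the authors' values for the same genes, which equal those counts over gene length and column total. Tools in the submitters' processing notes are HISAT2 2.1.0 and HTSeq 0.6.1, beside SAMtools 1.5, FastQC 0.11.5, bcl2fastq and the build GRCm38. The sources used here do not give the strand setting or the treatment of shared reads. Libraries were strand-specific and made from polyadenylated RNA, per the labels' protocols.

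Columns were matched to samples by their descriptions. Genes were filtered with filterByExpr (15208 kept), scaled with TMM and tested with the edgeR 4.0.16 quasi-likelihood test in R 4.3.3, in 1 fit of all 18 libraries on group and sex. A gene was called when its Benjamini-Hochberg adjusted p, taken over the whole table, was below 0.05. The difference between the sexes came from a fit with a mean for each group and sex, and each sex was also fitted alone. The standard error is the log2 fold change over the square root of its F. The median biological coefficient of variation was 0.339. The labels number the samples of each group but do not state that each is a separate mouse, so p values measure the spread between these samples. Depth ran from 38236222 to 59923315 counts.

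Log2 CPM used a prior count of 2. Ratios used RPKM and exact permutation tests. The members, 14 gene lists (115 genes, 3 matched by an older name), named genes and alternatives were chosen with earlier results of these data known. Named genes are the 7 members, the 10 genes most like them, called genes of each pathway list, or in a genotype comparison with none its 2 with the smallest p, and the 2 most abundant genes of each marker list; called markers, list extremes and Cr2 were named after their values were seen. One gene that this rule names is not reported here. The edgeR fit was tested on simulated data. Alternatives were DESeq2 1.42.0, limma-voom (limma 3.58.1), other scalings, filters and terms, limma on log2 RPKM, each sex alone and each library left out in turn. All 36 columns of both tables had a sample.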

Additional observations from a re-analysis of the deposited data

Results flagged for a closer look

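Of the 21 sets of 6 libraries formed by 7 genes and 3 genotypes, 2 held a library far from the other 5, against about 1 in 20 by chance. H2-DMb1 measured 17.3 CPM in Dp16 4, against at most 8.86 CPM in the other Dp16 libraries; that library also has the lowest TMM factor. Cd74 measured 258 CPM in wild-type 3, against at most 125 CPM in the other wild-type libraries. In RPKM, which carry no TMM factor, H2-DMb1 was 9.87 in Dp16 4, with the other Dp16 libraries at 2.88 to 6.59, and by the same measure that library no longer stood apart. Cd74 in RPKM was 187 in wild-type 3, with the other wild-type libraries at 58.6 to 94.8, and that library still did.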

How the results depend on the processing

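No member was called under any of 15 alternative settings or with any of the 18 libraries left out, and 1089 of 1113 recomputed member values kept their sign. Females alone, the Dp16 against wild-type values turned negative for H2-Aa (-0.61), H2-Ab1 (-0.54), H2-Eb1 (-0.37), H2-DMa (-0.49), H2-DMb1 (-0.31) and Cd74 (-0.24), and the Dp16-2xIFNRs against wild-type values for H2-Ab1 (-0.0278), H2-DMa (-0.32) and Cd74 (-0.00297). Dp16-2xIFNRs against Dp16 turned for H2-DMa with library totals alone (-0.0140), males alone (-0.0314) and limma on RPKM after adding 0.1 (-0.0331) or 1 (-0.0226) before the log, and for Ciita in males alone (0.0922). Without both Dp16 4 and 5, the difference between the sexes in Dp16 against wild-type was -0.18 for Ciita, and the log2 ratio of H2-DMb1 over H2-Aa in Dp16-2xIFNRs against Dp16 was 0.0940. With each library left out in turn, that difference for Ciita ran from -0.32 to 0.69, H2-DMa from -0.0146 to 0.31 in Dp16 against wild-type and from -0.0912 to 0.23 in Dp16-2xIFNRs against Dp16, the log2 ratio of H2-Ab1 over H2-Aa in Dp16-2xIFNRs against wild-type from -0.0337 to 0.0137, and that of H2-DMb1 over H2-Aa in Dp16-2xIFNRs against Dp16 from -0.0906 to 0.0486. The cause was not tested. Ciita's median correlation with the other 6 was 0.103 with no means removed. Same-numbered libraries of different groups deviated together with a median correlation of 0.101 (-0.522 to 0.591), 9 of 18 pairs over 0.1 and 3 of 18 libraries closest to their own number, so the numbers were not taken as pairs; with the replicate number as a block the difference between the sexes in Dp16 against wild-type was -0.83 for Cd74 and 0 members were called. Calls over all genes depend on the tool: 6 for Dp16 against wild-type (0 females alone to 72 with DESeq2), 15 for Dp16-2xIFNRs against wild-type (0 to 127), 0 for Dp16-2xIFNRs against Dp16 (to 7), 998 for female against male (788 to 1535), and 0 for the differences between the sexes (up to 52, 10 and 12 with DESeq2). Depth limits Ciita most, at 18 to 154 counts.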
